A study of Mus musculus with 12 samples.

Results

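The genes described here encode the enzymes of cholesterol synthesis together with their regulators, a sterol branch of 25 genes, and the enzymes that build, lengthen, desaturate and activate fatty acids, a fatty acid branch of 13 genes. Each gene was represented by a probe that the array annotation pairs with that gene alone and, where there were several, by the probe of highest mean signal over all 12 arrays. Such a probe was found for 36 of the 38 genes, 24 of the sterol and 12 of the fatty acid branch, among 18194 genes named on the array. No probe was paired with Acat2 or Acsl1 alone in the annotation used, and these genes were not analysed here. All 36 genes had a mean signal above 50, the cutoff of the study, in at least 1 group. The signals come from spinal cord segments at the Th9 level of female C57BL/6J mice, and no engineered allele is given for any of them. Young mice were 2 to 3 months and aged mice 15 to 18 months old, and within each age 3 mice were intact (naive) and 3 had received a contusion of the cord 9 days earlier, so that there were 4 groups of 3 mice with 1 array per mouse. A segment is a mixture of neurons, glia, meninges, vessels and, after spinal cord injury (SCI), cells that entered the lesion, so fewer cells of a type and less RNA per cell cannot be told apart in any result below.

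Cholesterol does not cross the blood-brain barrier in useful amounts, so the central nervous system makes its own, and most of it lies in myelin. The pathway runs from acetyl-CoA through mevalonate and farnesyl diphosphate to squalene and then through a long series of sterols to cholesterol. Its genes, and many of those of fatty acid synthesis, are known targets of the sterol regulatory element-binding proteins (SREBPs), which the escort protein SCAP carries out of the endoplasmic reticulum when sterols are scarce and which the INSIG proteins hold back when sterols are plentiful.

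The signals are linear MAS 5.0 intensities on a common scale. Log2 signals of the 10511 genes with a mean above 50 in at least 1 group entered 1 limma fit with a mean for each group, and the call of a gene as higher or lower needed a p under 0.05 after Benjamini-Hochberg adjustment over these 10511 genes. Every adjusted p below is from this limma fit. A group mean under 50 was set to 50 for folds, which are then written as "at least", and the fitted log2 difference of such a gene is no measure of its fold. The comparison of the ages in intact cord and that of injured with intact cord in young mice share the young intact arrays, as other pairs of comparisons share a group, so their values are given side by side only.

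One aged injured cord, replicate 1, stood apart. It had the lowest signal of its group for 20 of the 24 sterol and 10 of the 12 fatty acid genes. Its summed signal over 14 neuronal markers was 1702, against 11601 and 7446 on replicates 2 and 3 and 8052 to 12552 in young injured cords, and its sums over oligodendrocyte and astrocyte markers were also the lowest of all 12 arrays. For each whole branch, the counts of called members that rest on this group are therefore also given without this array, in either direction. The other counts that rest on this group include it. These are counts of enzymes, of signs, of arrays apart, by the cutoffs of the methods, of wider pathway genes and of markers.

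The sterol enzymes were lower in injured cord at both ages. The branch holds 17 enzymes, from Hmgcs1, which makes HMG-CoA, to Dhcr7, a reductase at the end of the pathway. In young mice all 17 were lower in injured than in intact cord, with a median log2 difference of -1.49, against -0.005 over all genes tested. In aged mice 16 were lower and 1, Ebp, was higher, with a median of -1.04, against -0.042 over all genes. Over the whole sterol branch 22 of 24 genes were lower and 1 was higher in young mice and 21 were lower and 1 was higher in aged mice. Of all genes tested, 34.1% were called lower and 33.9% higher in young mice and 39.9% lower and 35.6% higher in aged mice. Injured arrays lay below all intact ones for 22 of the 24 at either age, against 38.7% of all genes in young and 41.6% in aged mice. Without aged injured replicate 1, 23 of the 24 sterol genes were called in aged mice, beside 72.2% of all genes. The cutoffs named in the methods are a mean above 50 and a ratio of means above 2, counted here in either direction. Past them were 13 sterol and 2 fatty acid genes in young mice (23.5% of all genes), among them Srebf1, which rose. In aged mice 12 sterol and 3 fatty acid genes were past them (31.1%). None was past them in either comparison of the ages (0.285% of all genes in intact and 1.88% in injured cord).

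**Figure D1:**
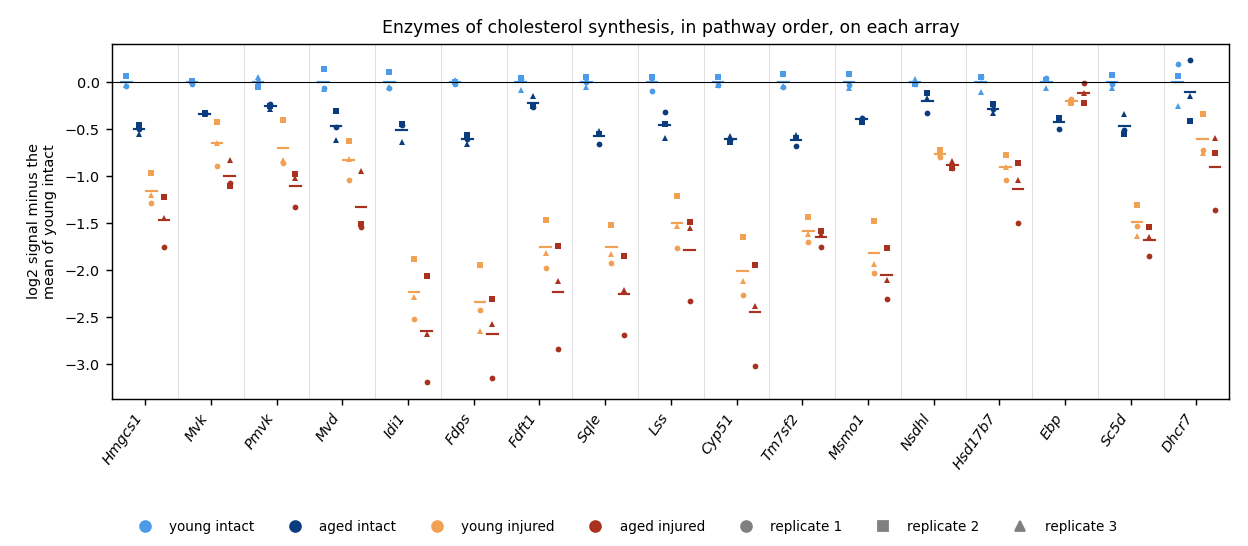
Signals of the 17 cholesterol synthesis enzymes in pathway order on each of the 12 arrays, as log2 signal minus the mean log2 signal of the young intact cords (vertical axis), with 1 point per array, the point shape giving the replicate and a bar the group mean. All injured cords lie below all intact cords of the same age for every enzyme in young mice and for every enzyme but Ebp in aged mice, and for 16 of the 17 all aged intact cords lie below all young intact cords.

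Fdps, which makes farnesyl diphosphate, had the largest fall of the branch in young mice. Its signals were 554, 562 and 572 in the young intact, 369, 382 and 356 in the aged intact, 105, 146 and 89.8 in the young injured and 63.7, 113 and 94.7 in the aged injured cords. No injured array came near an intact one. The fall was 4.96-fold in young (log2 difference -2.34, standard error 0.20, adjusted p = 3.53e-06) and 4.07-fold in aged mice (-2.07, standard error 0.20, adjusted p = 6.23e-06).

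Idi1, the isomerase of the isoprenoid unit, gave 1217, 1369.5 and 1231 in young intact and 221, 344 and 261 in young injured cords, and 924, 933 and 818 in aged intact and 139, 305 and 199 in aged injured cords. The groups of the same age did not overlap, and the log2 differences were -2.23 in young (standard error 0.24, adjusted p = 1.63e-05) and -2.13 in aged mice (adjusted p = 1.62e-05). Cyp51, which demethylates lanosterol, gave 718, 758 and 716 in young intact, 152, 233 and 169 in young injured, 478, 469 and 489.9 in aged intact and 89.7, 190.1 and 140.4 in aged injured cords. It fell 3.96-fold in young (adjusted p = 2.52e-05) and 3.42-fold in aged mice (adjusted p = 3.27e-05). Fdft1, the squalene synthase at the branch point to sterols, gave 1467, 1479 and 1349 in young intact, 362, 516 and 405 in young injured, 1192, 1204 and 1293 in aged intact and 201, 427 and 331 in aged injured cords. Its injured cords again lay below all intact cords, with a fall of 3.35-fold in young (adjusted p = 5.52e-05) and 3.85-fold in aged mice (adjusted p = 1.46e-05).

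The other enzymes fell by different amounts. Of the mevalonate arm, Hmgcs1 was 3933 ± 169 in young intact, 2780.2 ± 92 in aged intact, 1772 ± 207 in young injured and 1434 ± 258 in aged injured cords (mean ± SD, n = 3 each), a fall of 2.22-fold in young and 1.94-fold in aged mice. Pmvk, a kinase of mevalonate phosphate, fell 1.6-fold and 1.8-fold. The mevalonate kinase Mvk and the decarboxylase Mvd had low signals, 72.8 and 82.5 in young intact cord, and means under 50 in both injured groups, so that their falls were at least 1.46-fold and 1.65-fold in young and at least 1.15-fold and 1.19-fold in aged mice.

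Among the enzymes that turn squalene into cholesterol, the epoxidase Sqle, the cyclase Lss, the methyl oxidase Msmo1 and the desaturase Sc5d fell 3.36-, 2.8-, 3.47- and 2.8-fold in young and 3.11-, 2.45-, 3.13- and 2.32-fold in aged mice (adjusted p of at most 0.000158). Nsdhl and Hsd17b7, which act with Msmo1 in removing the methyl groups, fell 1.69- and 1.87-fold in young and 1.61- and 1.78-fold in aged mice. Probes of a gene with a mean above 50 differed in size. The Hsd17b7 probe used had the largest fall, with log2 differences of -0.906 to -0.361 over its probes in young and -0.852 to -0.324 in aged mice. So did that of Lss (-1.503 to -0.834 and -1.337 to -0.254). The Hmgcs1 probe used had the smallest fall (-1.815 to -1.155 and -1.522 to -0.97). Dhcr7 fell 1.52-fold in young (adjusted p = 0.0332) and 1.72-fold in aged mice (adjusted p = 0.00741). Its call in young mice ended in 5 alternative settings, the replicate block and without young intact replicates 1 or 2 or young injured replicates 1 or 3, with an adjusted p of up to 0.109. Signs were compared only among probes with a mean above 50 in at least 1 group. Of these, Mvd, Lss and Stard4 in the comparison of the ages in injured cord had 1 probe with a sign opposite to that of the probe used. So did Fads2 in the comparison of injured with intact cord in young mice. The probe used passed the test in none of these comparisons.

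The starts of these genes are shown because the members moved together. Mouse RefSeq windows of 250 bases before and 50 after each annotated start (build GRCm38.p6) were given for 31 of the 38 genes, and Fads1, Fdft1, Fdps, Scd1, Scd2, Sqle and Stard4 had none. Both strands were searched for CCAAT, the box bound by NF-Y, for GGGCGG, a GC box, and for TCACNCCAC, a form of the sterol regulatory element, and matches of different motifs were counted separately, also where they overlapped. CCAAT was found in 19 of 21 sterol genes (90.5%) and 6 of 10 fatty acid genes (60%), against 42.5% of the 8519 tested genes with a window and 41.1% of all 27025 genes. GGGCGG was found in 20 of 21 sterol genes (95.2%) and 6 of 10 fatty acid genes (60%), against 69.8% of the tested genes. TCACNCCAC was found in Hmgcs1 and Acsl1, 1 gene of each branch, and in 1.36% of the tested genes. The sterol genes without CCAAT were Acat2 and Scap. Ebp, Srebf1 and Elovl1, which did not fall at both ages, held CCAAT, and Elovl6, which fell at both ages, did not. Whether the box goes with the falls was not tested. A match describes letters only, and a window without one says nothing of the factor. The 180 bases before the start are printed 5′ to 3′ in the direction of the gene for 5 enzymes that fell at both ages. Those of Scap are printed too, which passed the test at neither age (adjusted p = 0.0532 in aged mice in limma). The printed genes were picked by hand and are no sample of the branch, and for Scap only the first of its windows is used. Capitals mark CCAAT (read as ATTGG where it lies on the other strand) and TCACNCCAC, all of these stretches lie upstream of the annotated start, and no annotated gene is recorded as overlapping them in the table used. The stretch of Hmgcs1 is chr13:119690171-119690350 on the plus strand, that of Idi1 chr13:8885426-8885605 on the plus strand, that of Cyp51 chr5:4104698-4104877 on the minus strand, that of Msmo1 chr8:64733579-64733758 on the minus strand, that of Sc5d chr9:42264301-42264480 on the minus strand and that of Scap chr9:110333108-110333287 on the plus strand.
Hmgcs1: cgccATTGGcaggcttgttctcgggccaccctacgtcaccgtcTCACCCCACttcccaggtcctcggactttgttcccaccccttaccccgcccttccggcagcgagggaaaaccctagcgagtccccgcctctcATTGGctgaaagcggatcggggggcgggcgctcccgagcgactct
Idi1: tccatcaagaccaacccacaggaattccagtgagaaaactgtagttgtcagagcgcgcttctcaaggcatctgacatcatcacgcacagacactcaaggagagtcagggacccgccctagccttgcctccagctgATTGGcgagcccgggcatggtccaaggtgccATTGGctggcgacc
Cyp51: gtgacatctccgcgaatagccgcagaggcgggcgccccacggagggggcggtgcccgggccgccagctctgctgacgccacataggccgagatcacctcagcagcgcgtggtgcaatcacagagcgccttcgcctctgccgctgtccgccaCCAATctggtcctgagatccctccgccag
Msmo1: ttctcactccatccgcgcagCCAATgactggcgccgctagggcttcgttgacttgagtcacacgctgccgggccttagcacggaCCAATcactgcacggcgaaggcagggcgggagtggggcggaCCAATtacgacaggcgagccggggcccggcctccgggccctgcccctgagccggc
Sc5d: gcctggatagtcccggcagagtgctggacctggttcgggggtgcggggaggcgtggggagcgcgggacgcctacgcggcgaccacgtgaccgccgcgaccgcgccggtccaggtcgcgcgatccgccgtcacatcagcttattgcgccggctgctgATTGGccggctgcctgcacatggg
Scap: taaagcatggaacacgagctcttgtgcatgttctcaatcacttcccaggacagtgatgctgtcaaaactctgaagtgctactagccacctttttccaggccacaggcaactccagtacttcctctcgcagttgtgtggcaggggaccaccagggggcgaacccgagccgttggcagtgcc
Counted from the start, the sterol element form of Hmgcs1 begins at -137, between CCAAT boxes on the opposite strand. In Msmo1 the stretch holds 3 CCAAT boxes and in Idi1 2, while Cyp51 and Sc5d hold 1 each, at -29 and -24.

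Ebp, which shifts the double bond of the sterol ring, did not follow the other enzymes. Its signals were 342, 337 and 318 in young intact, 235, 254 and 253 in aged intact, 294, 288 and 285 in young injured and 329, 285 and 306 in aged injured cords. Injured cords were lower than intact cords in young mice and higher than intact cords in aged mice, without overlap. The log2 differences were -0.20 in young (standard error 0.070, adjusted p = 0.0248) and 0.31 in aged mice (standard error 0.070, adjusted p = 0.00199). The difference between these, the interaction of age and injury, was 0.51 (standard error 0.099) and missed the threshold (adjusted p = 0.0594). The call in young mice ended under quantile normalization and without young intact replicates 1 and 2 or young injured replicates 2 and 3, with an adjusted p of up to 0.0803.

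Between the ages in intact cord, the sterol enzymes had lower signals in aged mice, but few passed the test. All 17 enzymes had a log2 difference below 0, as 48.5% of all genes did, with a median of -0.45 against 0.004 over all genes tested, and for 16 of them, all but Dhcr7, the 3 aged arrays lay below the 3 young arrays. Over all genes tested the aged arrays lay below the young ones for 11.2%. Limma called 2 of the 24 sterol genes lower and none higher, while 0.266% of all genes were called lower and 0.542% higher, and 11 sterol genes had an unadjusted p under 0.05, as 10.2% of all genes did.

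Tm7sf2, a sterol reductase, was the first of these genes. Its signals were 150.4, 165 and 151 in young intact and 97.2, 103 and 106 in aged intact cords, 1.53-fold lower in aged mice (log2 difference -0.61, standard error 0.096, adjusted p = 0.016). After SCI its signals were 47.7, 57.6 and 50.7 in young and 46.2, 51.9 and 50.9 in aged cords, around the cutoff of 50, and the ages overlapped. Ebp was the second, 1.34-fold lower in aged intact cord (log2 difference -0.43, adjusted p = 0.0179). Both calls ended with any 1 of the 6 intact arrays left out, with adjusted p values of up to 0.0901 for Tm7sf2 and 0.101 for Ebp, and without aged injured replicate 1 there were 6 calls in the sterol branch, with 2.05% of all genes called.

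Some enzymes that missed the threshold had differences as large, with a larger standard error. Fdps was 369 ± 12.8 in aged and 563 ± 9.27 in young intact cord (SD, n = 3 each; log2 difference -0.61, standard error 0.20, adjusted p = 0.288). Hmgcs1 gave 3827, 4127 and 3844 in young and 2784, 2870.2 and 2686 in aged intact cords (log2 difference -0.50, adjusted p = 0.114), and Sc5d differed by -0.47 (adjusted p = 0.0921). Mvk gave 71.7, 73.2 and 73.5 in young and 57.8, 57.8 and 57.5 in aged intact cords (log2 difference -0.34, adjusted p = 0.393). The intact arrays were close to each other within an age, and the standard errors here are shared with the injured arrays, which varied more. With a fit to the 6 intact arrays alone, 14 sterol genes were called lower and 1, Srebf1, higher, and 4.7% of all genes were called in either direction, against 0.809% with all 12 arrays. The 15 oligodendrocyte and myelin markers tested had a median log2 difference of -0.35 in this comparison, with all 15 below 0 and none called. In the same comparison 9 of 12 macrophage and microglia markers were higher (median 0.95) and 3 of 6 fibroblast markers were lower (median -0.58), and the part of these lists in the sterol result was not tested.

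In injured cord the sterol enzymes of aged mice again had lower signals, with less separation. Of the 17 enzymes 16 had a log2 difference below 0, as 56.1% of all genes did, with a median of -0.32 against -0.043 over all genes. The aged arrays lay below the young ones for 4 of the 24 sterol genes, and this held for 14.1% of all genes. None of the enzymes passed the test in limma, and 5 of 17 had an unadjusted p under 0.05, a share near the 30.1% of all genes. In the whole branch 1 gene, Srebf1, was called lower, 4.17% of the branch against 4.58% of all genes, a share near the background, and none was called higher, as 4.41% of all genes were. The lowest adjusted p of an enzyme was that of Pmvk, at 99.4 ± 12.7 in aged and 133 ± 24.7 in young injured cord (SD, n = 3 each; log2 difference -0.41, adjusted p = 0.0671). The branch count was 9 without aged injured replicate 2, where 29.2% of all genes were called in either direction, and 0 without aged injured replicate 1, without young injured replicates 1 or 3 or with any 1 intact array left out.

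**Figure D2:**
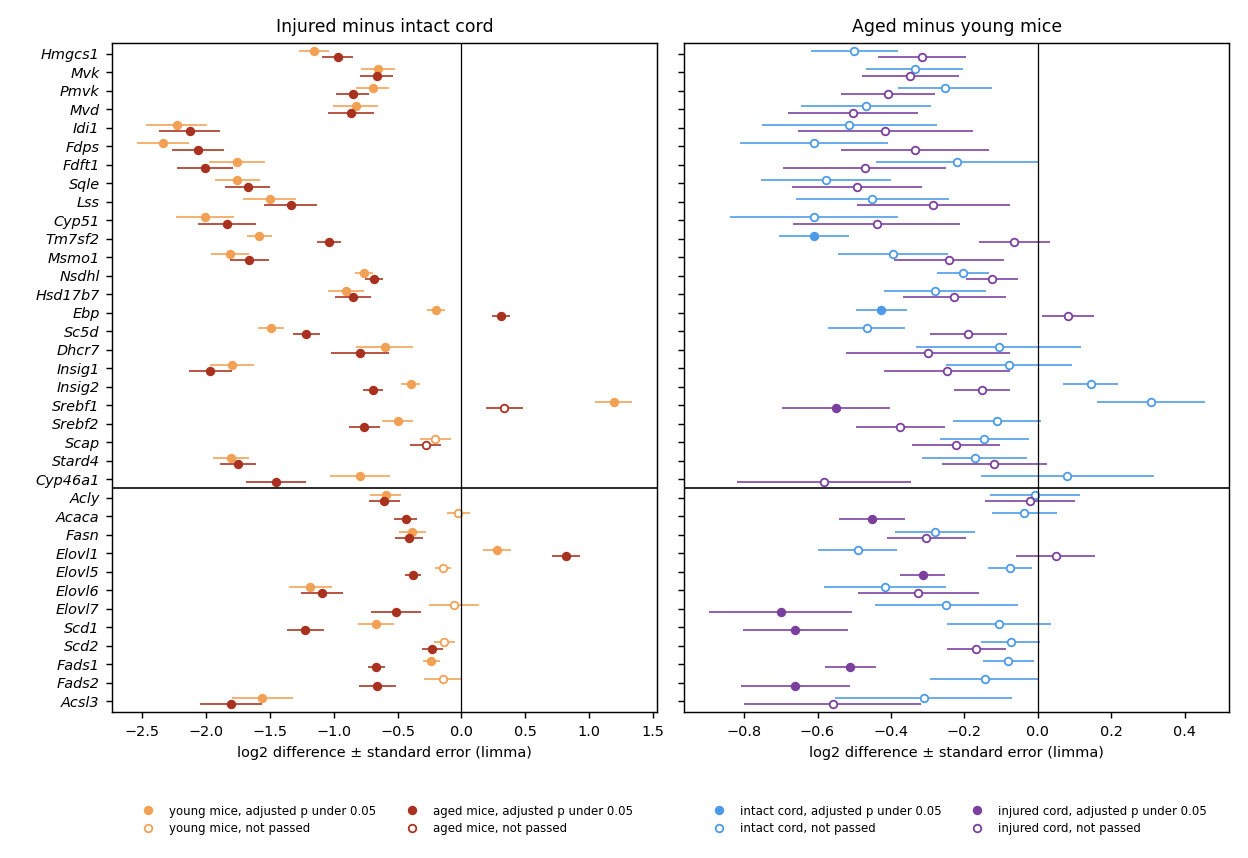
Log2 differences with their standard errors from limma (horizontal axis) for the 36 genes, sterol branch above and fatty acid branch below the line, between injured and intact cord (left) and between aged and young mice (right). Filled points passed an adjusted p of 0.05 and open points did not. On the left nearly all sterol points lie to the left of 0 at both ages, while Srebf1 and Elovl1 lie to the right, and on the right the filled points are Tm7sf2 and Ebp in intact cord and Srebf1 with 6 fatty acid genes in injured cord.

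The genes that control the pathway split. Insig1, which retains the SREBPs and is itself an SREBP target, fell like the enzymes, from 765, 758 and 689.8 in young intact to 189, 243 and 207 in young injured cords and from 728, 688 and 679 in aged intact to 128, 218 and 204 in aged injured cords. The injured arrays lay far below all intact ones, with a fall of 3.46-fold in young (adjusted p = 7.32e-06) and 3.81-fold in aged mice (adjusted p = 2.83e-06). Unlike most enzymes it had overlapping ages in intact cord (log2 difference -0.078, adjusted p = 0.99). Its paralog Insig2 fell less, 1.31-fold in young and 1.62-fold in aged mice, and in intact cord its aged signals, 417, 418 and 417, lay above the young ones, 371, 374 and 388, without passing the test (log2 difference 0.14, adjusted p = 0.587).

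Srebf2, which encodes SREBP2, the main activator of the sterol genes, had signals near the cutoff. They were 59.2, 57.3 and 62.0 in young intact, 59.2, 54.9 and 51.3 in aged intact, 39.0, 43.9 and 43.5 in young injured and 29.1, 33.9 and 34.7 in aged injured cords. Both injured groups lay below both intact groups, and with the injured means under 50 the falls were at least 1.19-fold in young (adjusted p = 0.0036) and at least 1.1-fold in aged mice (adjusted p = 0.00017). With signals under 50 set to 50 the call in aged mice ended (adjusted p = 0.0559).

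Srebf1, which encodes SREBP1, the regulator tied mainly to fatty acid genes, rose after SCI in young mice. Its signals were 260.1, 234 and 221 in young intact, 303, 308 and 272 in aged intact, 651, 441 and 558 in young injured and 310.3, 393 and 419.8 in aged injured cords. The young injured cords were the highest group and did not overlap with any other. The rise was 2.31-fold in young mice (log2 difference 1.19, standard error 0.15, adjusted p = 4.62e-05), and in aged mice the log2 difference was 0.34 and missed the threshold (adjusted p = 0.0564). Between the ages the aged signals lay above the young ones in intact cord (log2 difference 0.31, adjusted p = 0.526) and below them in injured cord (-0.55, adjusted p = 0.0427), and the interaction was -0.86 (adjusted p = 0.109). The call between the ages in injured cord ended in 14 of 21 alternative settings, among them any 1 intact array, young injured replicates 1 or 3 or aged injured replicates 1 or 3 left out, with an adjusted p of up to 0.194.

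Scap, the escort of the SREBPs, did not pass in any comparison. It gave 229, 236 and 227 in young intact, 187, 241 and 201 in aged intact, 233, 168 and 205 in young injured and 169, 169 and 177 in aged injured cords. Intact and injured cords overlapped in young mice (log2 difference -0.20, adjusted p = 0.154) and were just apart in aged mice (-0.28, adjusted p = 0.0532), where it passed when aged intact replicate 1 or young injured replicates 1 or 2 were left out, with an adjusted p as low as 0.00573 over all settings. Stard4, a carrier of cholesterol within the cell, fell 3.49-fold in young and 3.33-fold in aged mice, with means of 219.6 ± 15.7 in young intact, 195 ± 10.8 in aged intact, 63.0 ± 7.67 in young injured and 58.5 ± 11.4 in aged injured cord (SD, n = 3 each). Cyp46a1, a neuronal hydroxylase that starts the removal of cholesterol from the brain, fell 1.71-fold in young (adjusted p = 0.0118) and at least 2.56-fold in aged mice (adjusted p = 0.000214), and its call in young mice ended without young injured replicate 1 (adjusted p = 0.0539).

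**Figure D3:**
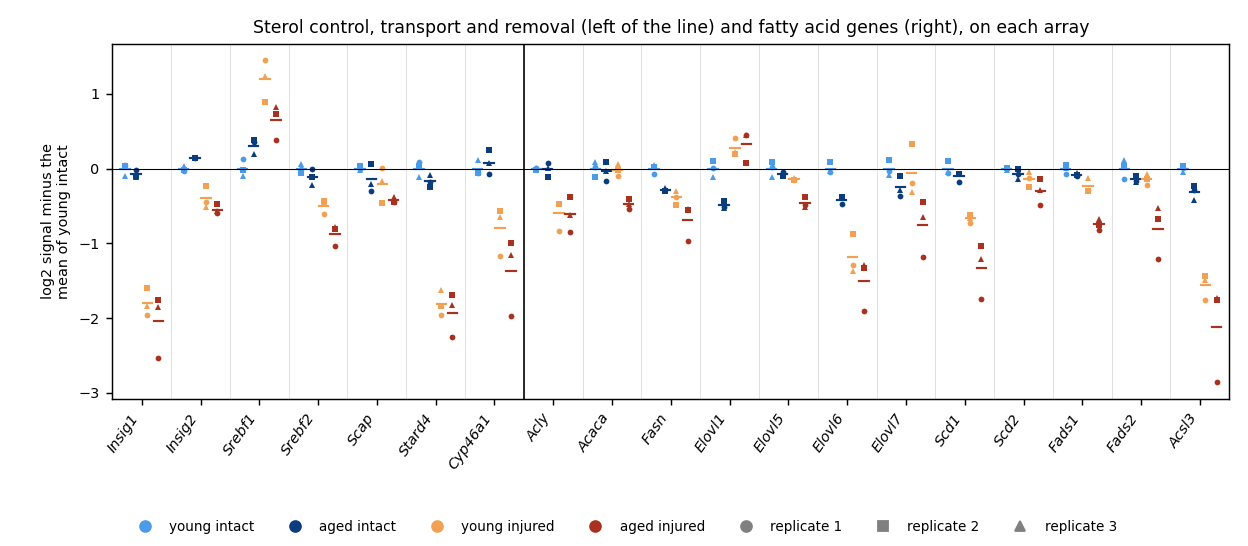
Signals of the genes of sterol control, transport and removal (left of the line) and of the 12 fatty acid genes (right) on each of the 12 arrays, as log2 signal minus the mean log2 signal of the young intact cords (vertical axis). Points are arrays, with the replicate given by shape, and bars are group means. Srebf1 rises where Insig1 and Stard4 fall, and Srebf2, Acaca, Fasn, Elovl5, Elovl7, Scd1, Fads1 and Fads2 have aged injured cords below all others.

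After injury fewer fatty acid genes passed the test in young than in aged mice. In young mice 6 of 12 genes were lower and 1 was higher in injured cord, with a median log2 difference of -0.19. In aged mice 11 were lower and 1 was higher, with a median of -0.56. These counts stand against 34.1% of all genes lower in young and 39.9% in aged mice. In either direction 68.0% of all genes were called in young and 75.5% in aged mice. Without aged injured replicate 1, 10 fatty acid genes were called in aged mice, beside 72.2% of all genes. The gene that rose at both ages was Elovl1. No interaction of age and injury passed the test in either branch, against 0.438% of all genes, while 4 of 24 sterol genes, a share near the 16.2% of all genes, and 6 of 12 fatty acid genes had an unadjusted p under 0.05 in limma. Without aged injured replicate 2 the interaction was called for 2 sterol and 3 fatty acid genes and 5.05% of all genes, and without replicate 1 for 1 sterol gene and 1.08% of all genes.

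Acly, which makes the acetyl-CoA of the cytosol, had signals of 1342, 1319.7 and 1349.9 in young intact, 1412, 1239 and 1343 in aged intact, 749, 963 and 967 in young injured and 743, 1030.2 and 871 in aged injured cords. It fell at both ages, 1.5-fold in young (adjusted p = 0.00153) and 1.51-fold in aged mice (adjusted p = 0.000987), with an interaction of -0.013 (standard error 0.18). Fasn, the synthase of palmitate, fell 1.31-fold in young (adjusted p = 0.00854) and 1.32-fold in aged mice (adjusted p = 0.00502), and its means were 385 ± 17.9 in young intact, 317 ± 4.57 in aged intact, 295 ± 19 in young injured and 241 ± 38.8 in aged injured cord (SD, n = 3 each).

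Acsl3, which couples fatty acids to coenzyme A, had the largest fall of the branch. Its signals were 1483, 1508 and 1425 in young intact, 1206, 1257 and 1099.9 in aged intact, 435, 545 and 525 in young injured and 203, 435 and 442 in aged injured cords. All injured arrays lay well below the intact ones, with a fall of 2.94-fold in young (adjusted p = 0.000214) and 3.3-fold in aged mice (adjusted p = 5.45e-05). The elongase Elovl6, which extends palmitate to stearate, gave 416, 456 and 419 in young intact, 309.9, 329 and 328 in aged intact, 175, 234 and 166 in young injured and 115, 171 and 177 in aged injured cords. Its injured groups also did not overlap with the intact ones, and it fell 2.25-fold in young (adjusted p = 0.000109) and 2.09-fold in aged mice (adjusted p = 0.000132).

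Elovl1, an elongase of saturated very long chain fatty acids, went the other way. It was 537 ± 39.3 in young intact and 651 ± 55.4 in young injured cord and 381 ± 14.7 in aged intact and 677 ± 97.6 in aged injured cord (SD, n = 3 each). The rise was 1.21-fold in young (adjusted p = 0.0391) and 1.78-fold in aged mice (adjusted p = 5.01e-05), with an interaction of 0.54 (adjusted p = 0.145). Its aged intact cords had the lowest signals of the 4 groups (log2 difference between the ages -0.49, adjusted p = 0.083). The call in young mice ended in 9 of 21 alternative settings, among them young intact replicates 1 or 3, young injured replicates 1 or 3 and aged intact replicates 1 or 3 left out, with an adjusted p of up to 0.144.

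Between the ages in intact cord no fatty acid gene passed the test in limma, and 3 of the 12, Fasn, Elovl1 and Elovl6, had an unadjusted p under 0.05, against 10.2% of all genes. The median log2 difference was -0.13, against 0.004 over all genes. The aged arrays lay below the young ones for 6 genes, against 11.2% of all genes. Elovl1 was called without aged injured replicate 1 and without aged injured replicate 2.

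After SCI the fatty acid branch differed between the ages. In aged injured cord 6 of 12 genes were lower than in young injured cord and none was higher, with a median log2 difference of -0.39, where 4.58% of all genes were called lower and 4.41% higher. They were the desaturases Fads1, Fads2 and Scd1, the elongases Elovl5 and Elovl7 and the carboxylase Acaca. Without aged injured replicate 1, 5 were called, beside 5.94% of all genes in either direction. In the same comparison 4 of 11 astrocyte and 2 of 15 oligodendrocyte and myelin markers were lower, with medians of -0.50 and -0.49, and 4 of 12 macrophage and microglia markers were higher. All 13 neuronal markers had a log2 difference below 0, with a median of -1.002 and none called, and 3 of 5 markers of dividing cells were higher, with a median of 1.08. The part of these lists in the result was not tested.

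Fads1, a desaturase of polyunsaturated fatty acids, gave 539, 587 and 570.2 in young intact, 529.7, 532 and 542 in aged intact, 462, 459.9 and 520.0 in young injured and 321, 336 and 354 in aged injured cords. The aged injured cords were the lowest group without overlap. They were 1.43-fold below the young injured ones (log2 difference -0.51, standard error 0.069, adjusted p = 0.00506), while in intact cord the ages differed by -0.080 (adjusted p = 0.842), and the interaction was -0.43 (adjusted p = 0.0907). Fads2, which acts before Fads1 in the same route, gave 200, 213 and 222 in young injured and 101, 147 and 162 in aged injured cords, with 211, 239 and 252 in young intact and 208, 219 and 207 in aged intact cords. Its aged injured cords were 1.55-fold below the young injured ones (log2 difference -0.66, adjusted p = 0.0251), and young injured and young intact cords overlapped.

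Scd1, the desaturase that makes oleate, gave 2453, 2735 and 2478 in young intact, 2260.4, 2429 and 2433 in aged intact, 1545, 1659 and 1619 in young injured and 763, 1249.9 and 1102 in aged injured cords. Its signals stepped down from intact to young injured to aged injured cords, and the last were 1.55-fold below the young injured ones (adjusted p = 0.0213). Scd2, its paralog in the brain, was 5403 ± 372 in young injured and 4825 ± 559.9 in aged injured cord (SD, n = 3 each) and missed the threshold between the ages (log2 difference -0.17, adjusted p = 0.184). After SCI in aged mice it was 1.17-fold lower than in intact cord (adjusted p = 0.0229), a call that ended without aged intact replicates 1 or 2 or aged injured replicate 1 (adjusted p of up to 0.0825).

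Acaca, which makes malonyl-CoA, gave 176, 159 and 183 in young intact, 153, 184 and 168 in aged intact, 160.1, 169.5 and 179.6 in young injured and 118, 129.5 and 124 in aged injured cords. The other groups overlapped with each other and the aged injured cords lay below them, 1.37-fold under the young injured cords (log2 difference -0.45, adjusted p = 0.0174). Elovl5, an elongase of polyunsaturated fatty acids, gave 1608, 1607 and 1635 in young injured and 1278, 1376 and 1253 in aged injured cords, against 1814, 1904 and 1650.4 in young intact and 1729.5, 1664 and 1691 in aged intact cords, and was 1.24-fold lower in aged than in young injured cord (adjusted p = 0.0167). Elovl7, an elongase of long saturated chains, gave 495, 706 and 454 in young injured and 248, 415 and 359 in aged injured cords, with 549.8, 611 and 534 in young intact and 438, 528 and 462 in aged intact cords. It had the widest spread of the 6 and passed narrowly (log2 difference -0.70, standard error 0.20, adjusted p = 0.0487). The probe used had the largest difference of the 6 probes of this gene, which ranged from -0.70 to -0.028, and the call ended with the mean over all probes, where the log2 difference was -0.36, and also with median centring, without the filter on signal and without the trend.

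These 6 calls rest on the spread that all 12 arrays share. A fit to the 6 injured arrays alone called none of them, and called 0 of all 10511 genes between the ages. With all groups in the fit, leaving out young injured replicates 1, 2 or 3 gave counts of 3, 2 and 2, with 2.84%, 2.77% and 3.91% of all genes called, and leaving out aged injured replicate 2 gave 9, with 29.2%. Fads1 and Elovl5 were called with any 1 array left out, and Scd1 and Fads2 failed without any 1 of the young injured arrays, Acaca without young injured replicates 2 or 3, and Elovl7 with any 1 array left out except aged injured replicate 2. Over all settings the adjusted p reached 0.206 for Elovl7 and at most 0.162 for the other 5.

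**Figure D4:**
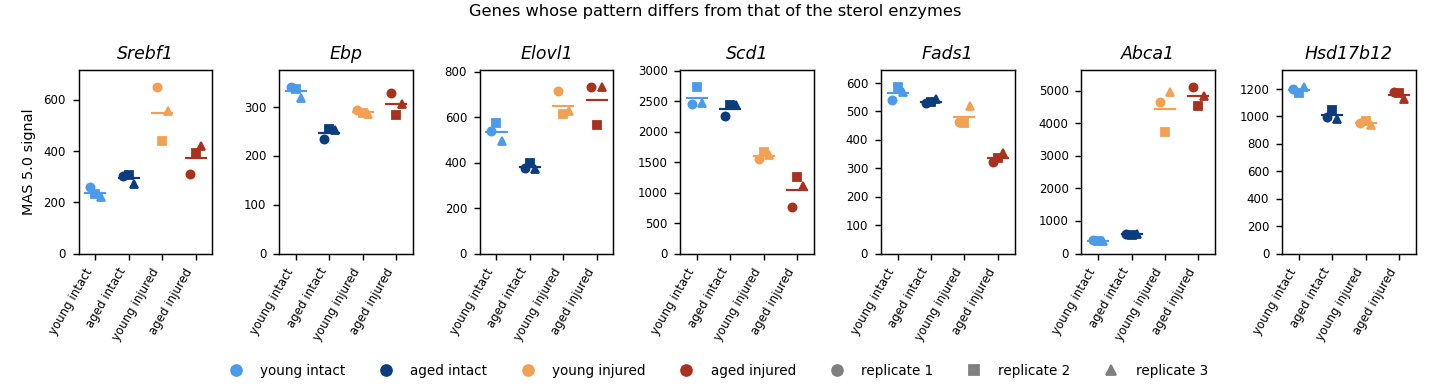
MAS 5.0 signals (linear vertical axes starting at 0) of 5 members and of the pathway neighbours Abca1 and Hsd17b12 on each array, with bars for the group means. Srebf1 is highest in young injured cord at 441 to 651, Fads1 is lowest in aged injured cord at 321 to 354, and Abca1 is above 3700 in every injured and below 610 in every intact cord.

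Other genes of the same pathways gave a different picture for sterols. Of the further genes listed for sterol synthesis, control, conversion and transport, 14 had a probe of their own and passed the signal cutoff, and were tested. Lbr and Ggps1, enzymes of this list, are named here after their values were seen. The mean of Lbr was 277 in young intact and 334 in young injured cord, and 280 and 307 in aged mice. That of Ggps1 was 302 and 220 in young and 338 and 214 in aged mice. After SCI 10 of the 14 were higher and 1 was lower in young mice, and 9 were higher and 2 were lower in aged mice, with median log2 differences of 0.39 and 0.64, where 33.9% of all genes were higher and 34.1% lower in young and 35.6% higher and 39.9% lower in aged mice. Abca1, an exporter of cholesterol, went from 420.4, 372 and 384 in young intact to 4650.1, 3719 and 4970.1 in young injured cords and from 605, 565 and 589 in aged intact to 5116, 4536 and 4838 in aged injured cords. Its log2 differences were 3.49 in young (adjusted p = 9.01e-10) and 3.04 in aged mice (adjusted p = 4.02e-09), and its aged intact cords exceeded the young ones as well (0.58, adjusted p = 0.0208).

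Abcg1, another exporter, and Mylip, which marks lipoprotein receptors for degradation, rose by log2 differences of 1.71 and 3.06 in young and 1.79 and 3.04 in aged mice (adjusted p of at most 3.27e-06). Ch25h, which makes an oxysterol, was under the cutoff in intact cord, where its mean was 17.8 in the young and 27.2 in the aged group, and reached 365, 343 and 426 in young injured and 668, 566 and 709.6 in aged injured cords (adjusted p = 4.67e-09 and 5.01e-09 against intact cord). Aged injured cords exceeded young injured ones (log2 difference 0.78, adjusted p = 0.0184), and so they did for the lysosomal cholesterol transporter Npc1 (0.35, adjusted p = 0.0192), while the SREBP protease Mbtps1 was lower (-0.30, adjusted p = 0.0381).

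Of 21 further genes of fatty acid synthesis, 19 were tested, since Acacb and Elovl3 stayed under the cutoff. After SCI 5 were higher and 10 were lower in young mice, and 6 were higher and 10 were lower in aged mice. The shares that were higher, 26.3% and 31.6%, were not above those of all genes, 33.9% and 35.6%, and the share that was lower, 52.6% at both ages, stood beside 34.1% and 39.9%. Elovl4, an elongase of very long chains, was 342 ± 32.0 in young intact, 105 ± 35.6 in young injured, 335 ± 7.87 in aged intact and 59.7 ± 35.5 in aged injured cord (SD, n = 3 each), with log2 differences of -1.76 in young (adjusted p = 0.00279) and -2.70 in aged mice (adjusted p = 0.000119). Thrsp, a regulator of lipogenesis, Acsl6, an acyl-CoA synthetase of neurons, and Tecr, the last reductase of the elongation cycle, fell too, with log2 differences of -1.55, -1.25 and -1.52 in young and -2.24, -2.03 and -1.82 in aged mice (adjusted p of at most 0.0021). Between the ages 2 of the 19 genes were lower in intact cord (10.5%), beside 0.266% of all genes. In injured cord 2 were higher (10.5%) and 4 lower (21.1%), beside 4.41% and 4.58% of all genes. Both genes of the intact comparison, named here after their values were seen, belong to the elongation cycle: the dehydratase Hacd1 (-0.70, adjusted p = 0.00146) and the reductase Hsd17b12 (-0.25, adjusted p = 0.049).

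Markers of cell types moved in different directions after SCI, and their part in these results was not tested. The summed signal of 15 oligodendrocyte and myelin markers was 32628 to 34961 in young intact, 27680 to 29216 in aged intact, 28810 to 30620 in young injured and 18419, 26650 and 25064 on replicates 1, 2 and 3 of the aged injured cords. Of these 15 markers 6 were lower and 1 was higher after SCI in young and 10 were lower in aged mice, with median log2 differences of -0.38 and -0.63, beside 34.1% and 39.9% of all genes called lower. The sum of 14 neuronal markers was 23683 to 24946 over the intact and 1702 to 12552 over the injured cords. That of 11 astrocyte markers was 22844 to 23409 in young intact and 22921 to 25960 in young injured cords. In aged mice it was 21826 to 22648 in intact and 12398 to 20175 in injured cords. The median log2 difference of the astrocyte markers after SCI was -0.052 in young and -0.52 in aged mice. The sum of 12 macrophage and microglia markers was 3000 to 3375 in young intact, 5676 to 6054 in aged intact, 29324 to 38179 in young injured and 37193 to 43187 in aged injured cords. Fibroblast markers (6 genes) summed to 2503 to 4014 in intact and 10566 to 15087 in injured cords. The sum of 5 markers of dividing cells was 59.3 to 135 in intact, 462 to 750.3 in young injured and 845 to 1894 in aged injured cords, and all 5 were higher after SCI at both ages. Of 6 adipocyte markers, Adipoq, Lep, Retn and Cidec had means under 50 in every group, while the mean of Fabp4 was 28.3 in young intact, 11.7 in aged intact, 476 in young injured and 846 in aged injured cord and that of Car3 was 134 to 295 over the groups. The 4 measured Schwann cell markers summed to at most 279 on any array. All 15 oligodendrocyte and 13 of the 14 neuronal markers had a mean above 50 in intact cord.

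**Figure D5:**
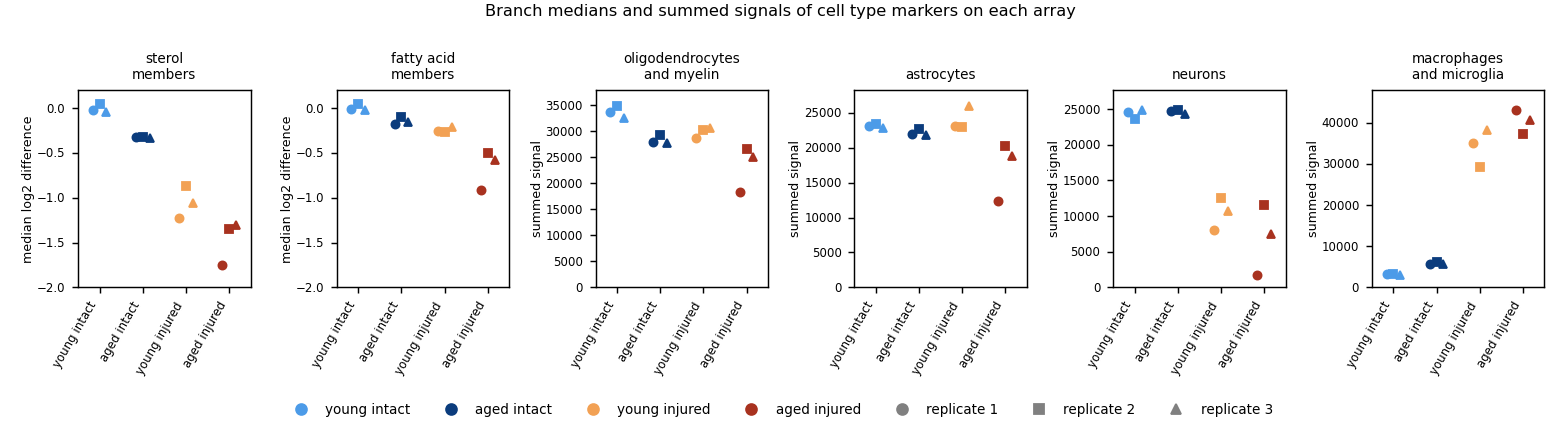
Median log2 difference from the young intact mean over the 24 sterol and the 12 fatty acid genes on each array (left panels, vertical axis) and summed MAS 5.0 signal of the markers of 4 cell types (right panels, vertical axes starting at 0), with 1 point per array and its shape giving the replicate. The sterol medians are -0.33 to -0.32 in aged intact, -1.23 to -0.87 in young injured and -1.75 to -1.30 in aged injured cords, and replicate 1 of the aged injured group is lowest in both branches and in the oligodendrocyte, astrocyte and neuronal sums.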

How the data were processed

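Segments of spinal cord from 12 mice were measured on 1 GeneChip Mouse Genome 430 2.0 array each. The deposited intensities are linear MAS 5.0 signals, which the authors scaled so that the trimmed mean of every array is 100. Probes annotated to a single gene (34958 of 45101) were used, and those with several genes (932) or without one (9211) were left unnamed. Samples were grouped by GEO's labels, which do not say that replicate numbers pair mice, so no pairing entered the fit. The p-values set each difference against the spread between mice within groups. This spread was pooled over all 4 groups and drawn toward that of other genes. Log2 signals were fitted in R 4.3.3 with limma 3.58.1 (lmFit, contrasts.fit, eBayes with trend) over all 12 arrays, without a block, and the fit was tested on simulated data. The alternatives tried were quantile normalization, median centring, no filter, a floor of 50, the mean over all probes of a gene, no trend, array weights, a replicate block, only the arrays compared, each array left out and the cutoffs of the methods. The members and lists were chosen with earlier results of these data known. Values on each array are given for members called between the ages or in the interaction (at most 12), for the 4 of each branch with the largest difference after injury averaged over the ages, and for Insig1, Srebf1, Srebf2 and Scap, and for at most 4 neighbouring pathway genes a branch by size of difference. Genes outside this rule were chosen after their values were seen. Besides those marked so, they are Hmgcs1, Mvk and Insig2, whose arrays in intact cord are given, and Npc1 and Mbtps1. Promoter windows come from RefSeq GRCm38.p6. The number of arrays limits the precision.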

Additional observations from a re-analysis of the deposited data

Results flagged for a closer look

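Effects that ran in opposite directions in the groups compared were looked at again, with the difference itself tested by the interaction of age and injury in limma. Ebp was lower after injury in young mice (log2 difference -0.20) and higher in aged mice (0.31), a difference of 0.51 (adjusted p = 0.0594). For Srebf1 the log2 difference between aged and young mice was 0.31 in intact cord, which did not pass the test (adjusted p = 0.526), and -0.55 in injured cord (adjusted p = 0.0427), a difference of -0.86 (adjusted p = 0.109). Neither interaction passed the threshold.

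Among the neighbouring pathway genes, Hsd17b12, the ketoacyl reductase of the elongation cycle, which was chosen after its values were seen, was lower after injury in young mice (log2 difference -0.33) and higher in aged mice (0.20), a difference of 0.53 that passed the test (adjusted p = 0.0161). Its signals were 1199, 1172 and 1216 in young intact, 994, 1045 and 983 in aged intact, 951, 969.6 and 935 in young injured and 1177, 1169.6 and 1125 in aged injured cords. The same interaction of 0.53 separates the comparisons of the ages, with aged mice lower in intact (-0.25, adjusted p = 0.0490) and higher in injured cord (0.28, adjusted p = 0.0131).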

How the results depend on the processing

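Between injured and intact cord, 26 of the 30 calls in young and 31 of the 34 in aged mice held in every alternative fit, and no called difference turned its sign. Between the ages no call held in all of them (0 of 2 in intact and 0 of 7 in injured cord). By the cutoffs of the methods, in either direction, there were 13 sterol and 2 fatty acid genes in young and 12 and 3 in aged mice after injury, and 0 sterol genes in intact cord and 0 of either branch in injured cord between the ages.

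For sterol genes between the ages in intact cord (2 calls) the count was 4 with signals under 50 set to it (0.799% of all genes). With array weights, whose iteration stopped before its tolerance, the count was 12 (7.34% of all genes). With only the arrays compared it was 15 (4.7%), and with 1 array left out 0 to 6 (0.314% to 2.05%). For fatty acid genes (0 calls) it was 3, 4 and 0 to 1 with weights, only the arrays compared and 1 array left out. In injured cord, sterol genes (1 call) numbered 0 with no filter, 10 of 24 with weights, beside 39.9% of all genes, 0 with only the arrays compared and 0 to 9 with 1 array left out, and fatty acid genes (6 calls) 0 with only the arrays compared and 2 to 9 with 1 array left out. Of all genes, 3.64% were called there with no filter, none with only the arrays compared and 2.77% to 29.2% with 1 array left out. The interaction (0 calls) was called for 2 sterol genes with the floor, beside 0.942% of all genes, and for 8 with weights, beside 20.0%. It was called for 0 to 2 sterol genes with 1 array left out, beside 0.0666% to 5.05% of all genes. For fatty acid genes there were 6 such calls with weights and 0 to 3 with 1 array left out. The causes of these shifts were not tested, except that fits to fewer arrays have fewer degrees of freedom.

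With a replicate block the sterol count was 3 in intact and 0 in injured cord between the ages and 22 at either age after injury, and fatty acid counts were 6 in injured cord between the ages and 7 and 12 after injury. Under the block the calls of Srebf1 between the ages in injured cord and of Dhcr7 after injury in young mice ended, Hmgcs1 was called between the ages in intact cord, and no other member's call changed. Deviations of arrays with the same number correlated at -0.11 to 0.67 over 18 pairs, with 2 over 0.1. Both of these joined young injured with aged injured cords, at 0.595 for replicate 1 and 0.667 for replicate 2. Arrays of different number correlated at -0.63 to 0.32 over 36 pairs, with 6 over 0.1. Of the young injured arrays, 2 of 3 correlated best with the aged injured array of their number. The main fit had no block because the labels do not say that numbers pair mice, and what these injured arrays share was not tested.

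Signals near 50, as for Srebf2, Mvk and Mvd, limit what can be said of those genes, and 3 mice a group limit all comparisons of the ages.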
